A study of Mus musculus with 12 samples.

Results

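Npas4, Arc, Egr1, Egr2, Egr3, Egr4, Nr4a1, Nr4a2, Nr4a3 and Ier2 are activity genes, whose transcription in neurons is switched on by synaptic input. Every probe set that the array's annotation assigns to one of these 10 gene symbols was taken, which gave 19 of the 45101 probe sets on the array. Of the 19, 16 were above the filter on low signal and were tested, with at least 1 probe set for each of the 10 genes. The values come from prefrontal cortex (PFC) of male mice, collected 4 h after an intraperitoneal injection. Their age is given as 12 weeks, which in the paper is the age when obtained, before a week of habituation. By the paper, the dissected tissue includes adjacent motor cortex. The 4 groups were Fyn-null mice (B6;129S7-Fyntm1Sor/J) given 3 g/kg ethanol, Fyn-null mice given saline, control mice (B6129SF2/J) given 3 g/kg ethanol, and control mice given saline. All of them had received saline injections on the 3 days before, so every group carries a history of injection. There were 3 arrays per group, each of RNA from 3 mice combined, so the spread between arrays is a spread between pools. The Fyn-null mutation, which removes a non-receptor tyrosine kinase in all tissues, was carried on another stock than the controls, so the missing kinase and the stock cannot be told apart in any comparison of genotypes.

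Activity genes are immediate-early genes. Calcium entry through NMDA receptors and voltage-gated channels activates kinases that phosphorylate factors already bound at their promoters, such as CREB and the serum response factor complex, and transcription starts without new protein being made. Their transcripts are short-lived, so the level at any time follows recent activity. Npas4, Egr1 to Egr4 and Nr4a1 to Nr4a3 encode transcription factors, Arc encodes a synaptic protein that promotes the removal of AMPA receptors, and Ier2 encodes a nuclear protein of the immediate-early response. In cortex these genes are widely used as markers of neurons that have been active. In a bulk sample, fewer cells of a type and less RNA per cell cannot be told apart.

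CREB binds the core letters TGACG, and the windows before the starts of these genes are shown because the members called lower after ethanol and those that were not both carry these letters. Windows of 300 bases from RefSeq (GRCm38.p6), from 250 before to 50 after a start, were searched for 6 of the 10 genes, in 10 windows. Egr1, a member called lower, was left out of this search, and no window was available for Arc, Egr3 and Ier2. All 6 genes, and 8 of the 10 windows, held TGACG on either strand, against 20.8% of the 32851 windows of all genes. The Egr2 windows with TGACG overlap and hold the same matches, so the same letters were counted more than once. The share of all genes is per window and not per gene. The full palindrome TGACGTCA, found in 1.79% of all windows, was in none of the 10, and neither was the Egr site GCGTGGGCG, found in 0.612%. A serum response element was in 4 of the 5 Egr2 windows, which partly overlap one another, and in 1.63% of all windows. All motifs were searched on both strands, and TGACGTCA contains TGACG. The 250 bases before the start of Npas4 (chr19:4989972-4990221, minus strand), Nr4a1 (chr15:101266596-101266845, plus strand) and Nr4a3 (chr4:48045055-48045304, plus strand) follow, with 30 bases around each of both matches of Egr2 (chr10:67537746-67537775 and chr10:67537802-67537831, plus strand). Npas4, Nr4a1 and Egr2 are members called lower and Nr4a3 is one that was not. Capitals mark TGACG or its reverse complement CGTCA, and a match is a description of the letters, not a site shown to be bound.
Npas4: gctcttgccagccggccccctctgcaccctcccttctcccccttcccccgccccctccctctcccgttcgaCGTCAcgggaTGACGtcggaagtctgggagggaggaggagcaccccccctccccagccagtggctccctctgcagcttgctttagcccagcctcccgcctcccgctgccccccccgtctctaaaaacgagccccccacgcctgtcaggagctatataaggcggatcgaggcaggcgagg
Egr2, first match: aaattggccatgTGACGgcaaaagctgcca
Egr2, second match: tatgggcagcgaCGTCAcgggtattgaaga
Nr4a1: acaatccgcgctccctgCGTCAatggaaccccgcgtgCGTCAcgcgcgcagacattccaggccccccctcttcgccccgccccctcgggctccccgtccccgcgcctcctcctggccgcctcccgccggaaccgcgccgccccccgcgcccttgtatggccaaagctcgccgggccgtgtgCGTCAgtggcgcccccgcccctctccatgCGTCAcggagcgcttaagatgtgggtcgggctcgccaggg
Nr4a3: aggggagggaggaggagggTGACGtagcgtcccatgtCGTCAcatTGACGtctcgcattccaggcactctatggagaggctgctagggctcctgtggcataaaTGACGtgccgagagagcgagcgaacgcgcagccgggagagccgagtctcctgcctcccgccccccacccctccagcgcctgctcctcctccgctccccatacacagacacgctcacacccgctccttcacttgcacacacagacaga

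Values are log2 RMA signals, in which 1 unit is a doubling of signal, and the level of one probe set is not comparable with that of another. All 8 neuronal markers were above the filter, at mean levels of 8.99 to 13.1, as were all 6 measured markers of cortical layers. So were all 7 of astrocytes, 7 of oligodendrocytes, 8 of microglia and 6 of endothelium on the array, and 4 of 5 of striatal neurons. The probe set of Fyn with the higher signal was lower in Fyn-null than in control ethanol pools without overlap, but the saline pools overlapped. It was 8.75 to 9.01 in Fyn-null ethanol pools, against 9.33 to 9.70 in control ethanol pools (limma log2 difference -0.65, SE 0.23, adjusted p = 0.241). Among saline pools the one labelled Fyn-null replicate 4 reached 9.45, within the range of controls, and the one labelled control replicate 2 had 8.74, within the range of Fyn-null pools. The labels were kept, and results are also given without both pools. The second Fyn probe set overlapped between genotypes also among ethanol pools. Its Fyn-null minus control difference was -0.22 (SE 0.11, limma adjusted p = 0.408) after ethanol and -0.08 (SE 0.11) after saline. The 3' to 5' signal of control probe sets, which the paper used among its checks of array quality, differed with treatment. The difference between 3' and 5' signal of the beta-actin control probe sets was 0.76 to 1.15 in Fyn-null ethanol pools, against 1.31 to 1.41 in Fyn-null saline pools. It was 0.71 to 1.01 in control ethanol pools, against 0.98 to 1.45 in control saline pools, with overlap in control mice only. The same difference for Gapdh was 0.015 to 0.10 in Fyn-null ethanol pools, against 0.21 to 0.33 in Fyn-null saline pools, and -0.045 to 0.093 in control ethanol pools, against 0.11 to 0.53 in control saline pools, without overlap in either genotype.

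Over both genotypes, 5 of the 10 genes fell after ethanol. Npas4 fell to 34.3% of its saline level, Egr2 to 43.6% and 46.4% by its 2 probe sets, Arc to 56.1%, Egr1 to 60.3% and Nr4a1 to 72.8%. No member rose. The remaining 5 genes, Egr3, Egr4, Nr4a2, Nr4a3 and Ier2, did not pass the test. In the fit of 6 ethanol against 6 saline pools (limma, adjusted over all 24770 probe sets tested, called at an adjusted p under 0.05), 6 of the 16 member probe sets were called lower and 0 higher. Of all probe sets tested, 4.22% were called lower and 2.58% higher. Because the members were chosen with earlier results of these data known, these counts are a description and not a test. The 6 ethanol and 6 saline pools did not overlap, with ethanol lower, for 3 of the 16, those of Npas4, Egr1 and 1 of Egr2, against 2.58% of all probe sets. The median log2 difference of the 16 was -0.23, against -0.02 over all probe sets. With the 3' to 5' difference of each array as a covariate, which was chosen after seeing the data, none of the 16 was called, and 27 of all probe sets were, against 1686 without it. The log2 differences of these 6 probe sets were then -1.36 to -0.37, all below 0. The covariate moved with treatment, and standard errors were wider with it, for Npas4 0.28 against 0.16. Smaller estimates and wider errors thus both enter the lost calls. The part of RNA quality in the result was not tested beyond this. Without both pools whose Fyn signal went against the label, Npas4 (-1.56), Egr1 (-0.74) and the probe sets of Egr2 (-1.20 and -1.08) were still called over both genotypes, and Arc and Nr4a1 were not.

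**Figure D1:**
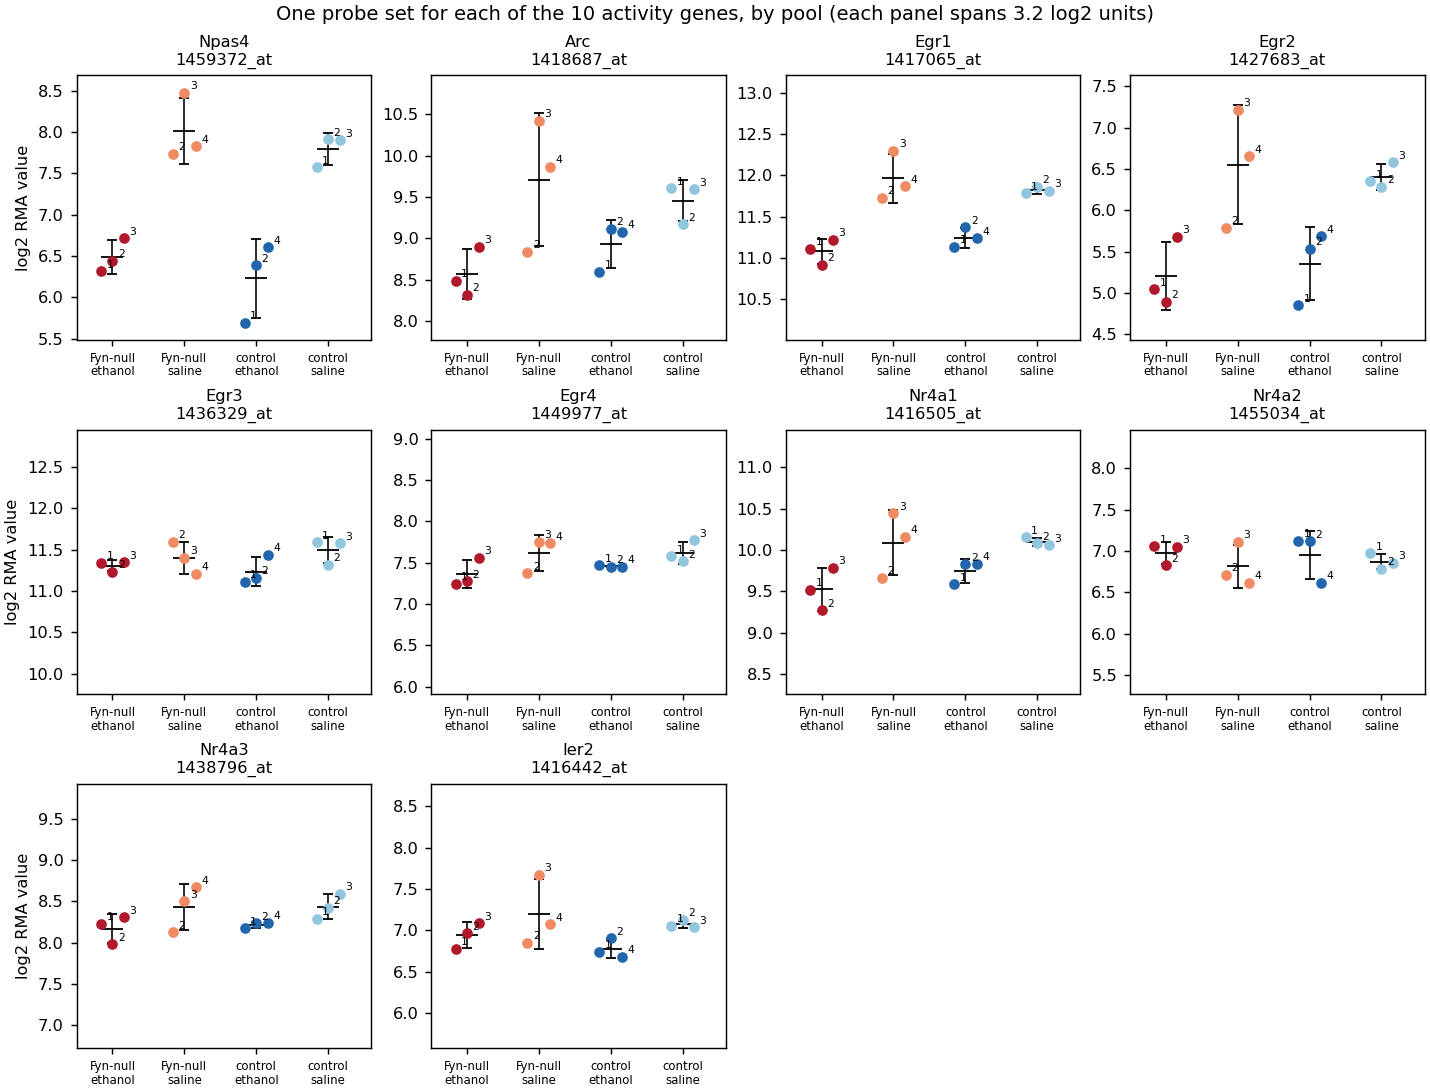
Level of 1 probe set for each of the 10 genes, the one with the highest mean signal, in the 12 pools (y axis, log2 RMA value, every panel spanning 3.2 log2 units, x axis, group). Points are pools with their replicate numbers, and bars are group means with the SD of 3 pools. Ethanol pools lie below all saline pools for Npas4, Egr1 and Egr2, and the groups of Egr3 and Nr4a2 overlap.

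Npas4, a neuron-specific transcription factor induced by calcium influx and known for organising inhibitory synapses, had the largest fall among the members. The log2 values of its probe set (1459372_at) were 6.31, 6.44 and 6.71 in Fyn-null ethanol pools, against 7.74, 8.48 and 7.83 in Fyn-null saline pools. They were 5.69, 6.39 and 6.61 in control ethanol pools, against 7.57, 7.91 and 7.90 in control saline pools. All 6 ethanol pools lay below all 6 saline pools, with no overlap in either genotype. The log2 difference was -1.54 (SE 0.16, limma adjusted p = 0.000192) over both genotypes, and it stayed between -1.63 and -1.42, still called, when each array was left out in turn. With the 3' to 5' covariate it was -1.36 (SE 0.28, limma adjusted p = 0.105).

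Egr1, a zinc finger transcription factor also called Zif268 that responds to synaptic plasticity, showed the tightest groups among the called members. Its probe set (1417065_at) had 11.11, 10.92 and 11.22 in Fyn-null ethanol pools, against 11.73, 12.30 and 11.87 in Fyn-null saline pools. In control ethanol pools it had 11.13, 11.37 and 11.24, against 11.78, 11.87 and 11.82 in control saline pools. The 6 ethanol pools again lay below all 6 saline pools, and the control saline pools lay within 0.084 of each other. The difference was -0.73 (SE 0.10, limma adjusted p = 0.00156) over both genotypes, and with the 3' to 5' covariate it was -0.62 (SE 0.17, limma adjusted p = 0.260).

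Egr2, the family member also known for its part in peripheral myelination and hindbrain development, was measured by 2 probe sets that both fell. The one with the higher signal (1427683_at) had 5.04, 4.89 and 5.68 in Fyn-null ethanol pools, against 5.78, 7.21 and 6.65 in Fyn-null saline pools. It had 4.85, 5.53 and 5.68 in control ethanol pools, against 6.35, 6.29 and 6.58 in control saline pools. The ethanol and saline pools did not overlap, but the highest ethanol pools, at 5.68 in each genotype, lay close below the lowest saline pool, Fyn-null replicate 2 at 5.78. The difference was -1.20 (SE 0.22, limma adjusted p = 0.00851), and that of the second probe set (1427682_a_at) was -1.11 (SE 0.19, limma adjusted p = 0.00566). With the 3' to 5' covariate they were -0.88 (SE 0.38, limma adjusted p = 0.523) and -0.70 (SE 0.31, limma adjusted p = 0.533). For the second probe set the highest ethanol pool, Fyn-null ethanol replicate 3 at 5.43, lay just above the lowest saline pool, Fyn-null saline replicate 2 at 5.42. The first probe set had ethanol values of 5.04, 4.89 and 4.85 below the filter level of 5.15. Group means of the second after ethanol, 5.03 in Fyn-null and 4.96 in control mice, were below it too. With signals this low, the size of the fall in Egr2 is less certain.

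Arc, whose transcript is carried into dendrites, had the widest spread within a group among the members, an SD of 0.80 over the Fyn-null saline pools. Its probe set (1418687_at) had 8.48, 8.32 and 8.90 in Fyn-null ethanol pools, against 8.84, 10.42 and 9.87 in Fyn-null saline pools. It had 8.60, 9.12 and 9.08 in control ethanol pools, against 9.60, 9.17 and 9.59 in control saline pools. Fyn-null saline replicate 2 lay among the ethanol pools, while Fyn-null saline replicate 3 was the highest of all 12. The difference over both genotypes was -0.83 (SE 0.23, limma adjusted p = 0.0472). The call was lost in 10 of the 12 fits that left out 1 array, with adjusted p up to 0.113, and among these it held only without the pool labelled control saline replicate 2 or without Fyn-null saline replicate 2. On all 12 arrays it was also lost with no filter (limma adjusted p = 0.0606), after a further quantile normalization (0.0545), with trend and robust moderation (0.0787) and with array weights (0.0556). Without both pools whose Fyn signal went against the label it was -0.86 (SE 0.25, limma adjusted p = 0.0675), and with the 3' to 5' covariate -0.56 (SE 0.40, limma adjusted p = 0.755).

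Nr4a1, an orphan nuclear receptor also called Nur77, had the smallest fall among the called members. Its probe set (1416505_at) had 9.52, 9.27 and 9.78 in Fyn-null ethanol pools, against 9.67, 10.45 and 10.16 in Fyn-null saline pools. It had 9.58, 9.83 and 9.84 in control ethanol pools, against 10.15, 10.08 and 10.06 in control saline pools. The control groups did not overlap, and in Fyn-null mice saline replicate 2 again lay within the ethanol range. The difference was -0.46 (SE 0.12, limma adjusted p = 0.0419). It was called in only 2 of the 12 fits that left out 1 array, those without Fyn-null ethanol replicate 3 and without Fyn-null saline replicate 2, and the adjusted p reached 0.0977 in the others. On all 12 arrays the call was also lost with no filter (limma adjusted p = 0.0574), after a further quantile normalization (0.0540) and with array weights (0.0564). Without both pools whose Fyn signal went against the label it was -0.44 (SE 0.14, limma adjusted p = 0.0902), and with the 3' to 5' covariate -0.37 (SE 0.21, limma adjusted p = 0.678).

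The other members of the Egr family had smaller differences. Egr4 (1449977_at), also a zinc finger transcription factor, had 7.25, 7.27 and 7.56 in Fyn-null ethanol pools, against 7.37, 7.75 and 7.73 in Fyn-null saline pools, and 7.47, 7.45 and 7.45 in control ethanol pools, against 7.58, 7.52 and 7.77 in control saline pools. The difference of -0.21 (SE 0.08, limma adjusted p = 0.129) was not called, although the control groups did not overlap. Egr3, known for its role in muscle spindle development and downstream of neuronal activity, gave differences of opposite sign by its 2 probe sets. The probe set with the higher signal (1436329_at) lay between 11.11 and 11.59 in all 12 pools (-0.18, SE 0.08, limma adjusted p = 0.215). The other (1421486_at) lay between 6.32 and 6.90 (0.15, SE 0.09, limma adjusted p = 0.344). No direction can be given for Egr3 from these values.

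In the Nr4a family, the fall of Nr4a1 was not shared by every member's probe sets. Nr4a3, also called NOR-1, had 8.22, 7.98 and 8.31 in Fyn-null ethanol pools, against 8.12, 8.50 and 8.67 in Fyn-null saline pools, by the probe set with the highest signal (1438796_at). In control ethanol pools it had 8.17, 8.23 and 8.24, against 8.29, 8.42 and 8.59 in control saline pools. The difference was -0.24 (SE 0.09, limma adjusted p = 0.128), and it was called only when Fyn-null saline replicate 2 was left out (-0.30, limma adjusted p = 0.0476). A second Nr4a3 probe set (1421080_at) gave -0.11 (SE 0.07). Nr4a2, also called Nurr1 and required for midbrain dopamine neurons, had 4 probe sets tested, with log2 differences of 0.12, 0.01, -0.06 and 0.20, none called. The one with the highest signal (1455034_at) lay between 6.61 and 7.12 in all 12 pools, and ethanol and saline groups overlapped in both genotypes. Below the filter were 2 further probe sets of Nr4a2, at mean levels of 4.67 and 3.46, and 1 of Nr4a3 at 3.56. These were not tested.

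Ier2 (1416442_at) had 6.78, 6.96 and 7.09 in Fyn-null ethanol pools, against 6.85, 7.67 and 7.08 in Fyn-null saline pools. It had 6.74, 6.91 and 6.68 in control ethanol pools, against 7.05, 7.13 and 7.04 in control saline pools. The highest pool, Fyn-null saline replicate 3, was also the highest for Npas4, Arc, Egr1, Egr2 and Nr4a1. The difference of -0.28 (SE 0.11, limma adjusted p = 0.156) was not called.

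Within a single genotype, 3 pools against 3, fewer members passed the test. In Fyn-null mice Npas4 (-1.52, SE 0.23, limma adjusted p = 0.0154) and Egr1 (-0.88, SE 0.13, limma adjusted p = 0.0143) fell, which makes 2 of the 16 member probe sets, against 0.145% of all probe sets called lower. In control mice Npas4 fell (-1.57, SE 0.23, limma adjusted p = 0.0113), which makes 1 of 16, against 0.925% of all called lower. In Fyn-null mice the probe sets of Egr2 gave -1.35 and -1.03 (adjusted p = 0.110 and 0.174 in limma) and were not called. In control mice they gave -1.05 and -1.18 (adjusted p = 0.119 and 0.0597 in limma) and Egr1 gave -0.57 (SE 0.13, limma adjusted p = 0.0586), none of them called. The groups did not overlap, with ethanol lower, for 3 of the 16 member probe sets in Fyn-null mice, against 9.81% of all probe sets, and for 9 of the 16 in control mice, against 16.3%. The 3 were those of Npas4, Egr1 and 1 of Egr2, and to these the control mice added Arc, the second of Egr2, Egr4, Nr4a1, 1 of Nr4a3 and Ier2.

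**Figure D2:**
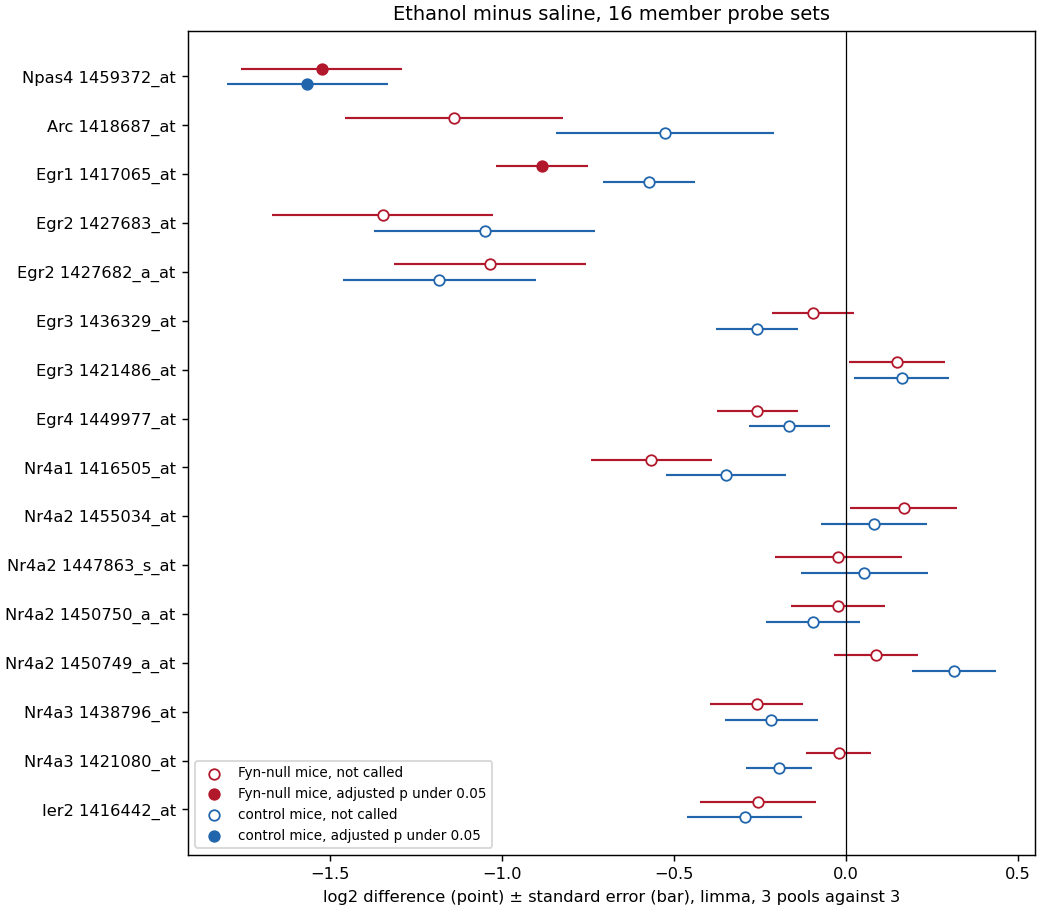
Log2 difference between ethanol and saline pools (x axis) for each of the 16 member probe sets tested (y axis), in Fyn-null mice above control mice. Points are limma estimates of 3 pools against 3, bars are standard errors, and filled points have an adjusted p under 0.05. Npas4 is filled in both genotypes and Egr1 in Fyn-null mice, and the estimates differ most for Arc, by -0.61 (Fyn-null minus control).

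The single-genotype calls in Fyn-null mice depended on single arrays. Npas4 was not called without Fyn-null ethanol replicate 1 (-1.44, limma adjusted p = 0.0771), without Fyn-null ethanol replicate 2 (-1.50, limma adjusted p = 0.0873) or without Fyn-null saline replicate 3 (-1.29, limma adjusted p = 0.0617). Egr1 was not called without Fyn-null ethanol replicate 1 (-0.90, limma adjusted p = 0.0571) or replicate 2 (-0.80, limma adjusted p = 0.0844). Without Fyn-null saline replicate 2, Arc (-1.57, limma adjusted p = 0.0183) and 1 probe set of Egr2 (-1.73, limma adjusted p = 0.0286) were called as well. Without both pools whose Fyn signal went against the label, Npas4 (-1.62, limma adjusted p = 0.0485) and Egr1 (-0.93, limma adjusted p = 0.0485) were called in Fyn-null mice, and Npas4 in control mice (-1.51, limma adjusted p = 0.0402). In control mice Npas4 was called in all 12 fits that left out 1 array, with differences of -1.75 to -1.30. It was not called in control mice when only the control groups entered the fit (limma adjusted p = 0.0613), nor in either genotype with the 3' to 5' covariate, where it was -1.32 (SE 0.35) in Fyn-null mice and -1.39 (SE 0.32) in control mice.

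Whether the response differed between genotypes was tested as the interaction, the ethanol response of Fyn-null mice minus that of control mice. Of the 24770 probe sets 0 were called (limma), with 1023 (4.13%) at an unadjusted p under 0.05, and none of the 16 member probe sets reached even the unadjusted threshold. The member with the largest estimate was Arc, with -0.61 (SE 0.45, limma adjusted p = 0.992). That of Egr1 was -0.31 (SE 0.19) and that of Npas4 0.04 (SE 0.33). With standard errors of this size, differences in response as large as the estimates of Arc and Egr1, which exceed their errors, were not resolved.

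No member was called between Fyn-null and control mice. After saline, 0 of all probe sets were called (limma), with 467 at an unadjusted p under 0.05, and 1 of the 16 member probe sets reached that level, the second of Nr4a3 (-0.23, SE 0.10, limma adjusted p = 0.9999). These 467 were 1.89% of all. The log2 differences of the members ran from -0.23 to 0.25. After ethanol, 0 of all probe sets were called, with 3380 (13.6%) at an unadjusted p under 0.05 and 0 of the members, whose differences ran from -0.36 for Arc (SE 0.32) to 0.26 for Npas4 (SE 0.23). Over both treatments 0 were called in all, with 2739 (11.1%) at an unadjusted p under 0.05 and 0 of the members, and Npas4 was at 0.24 (SE 0.16). Without both pools whose Fyn signal went against the label, 44, 260 and 669 probe sets were called in these 3 comparisons, and none of them was a member.

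**Figure D3:**
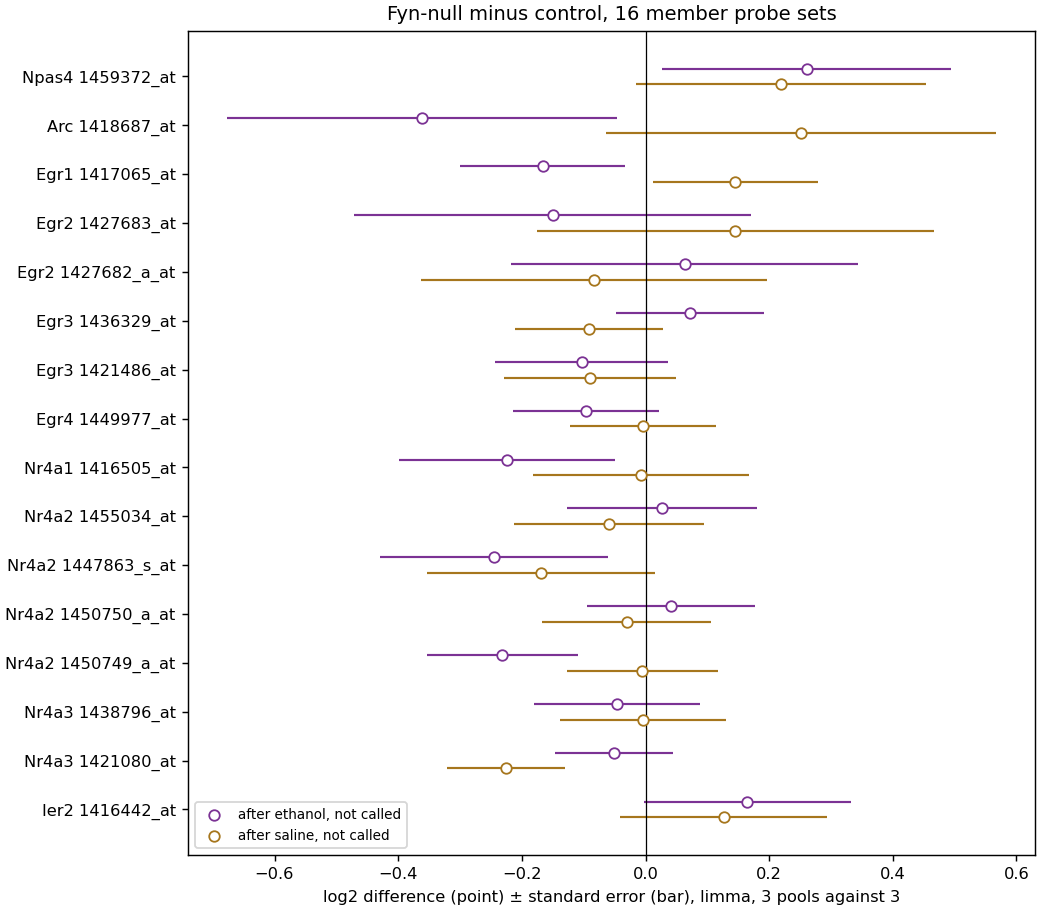
Log2 difference between Fyn-null and control pools (x axis) for each of the 16 member probe sets tested (y axis), after ethanol above after saline. Points are limma estimates of 3 pools against 3 and bars are standard errors. No point is called, and all lie between -0.36 and 0.26.

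Pools of one group differed in the members taken as a whole. Each pool was given the mean over the 10 genes of its distance from the gene's mean, in standard deviations. Fyn-null saline replicate 3 stood highest, at 1.52, with all 10 genes above their median and 6 of them highest there. Fyn-null saline replicate 2 stood at -0.20, below the other 5 saline pools, with 4 of 10 genes above their median. The lowest pool was Fyn-null ethanol replicate 2 at -1.11, with none of 10 genes above the median. The other Fyn-null ethanol pools were at -0.74 and -0.09, and that labelled Fyn-null saline replicate 4 was at 0.57. Control ethanol pools were at -0.81, -0.31 and -0.48, against 0.55, 0.31 (the pool labelled replicate 2) and 0.79 in control saline pools. Fyn-null saline pools covered a wider range than control saline pools, and this difference of spread was not tested. Each pool is a mixture of 3 mice, so the values of single mice are not seen.

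**Figure D4:**
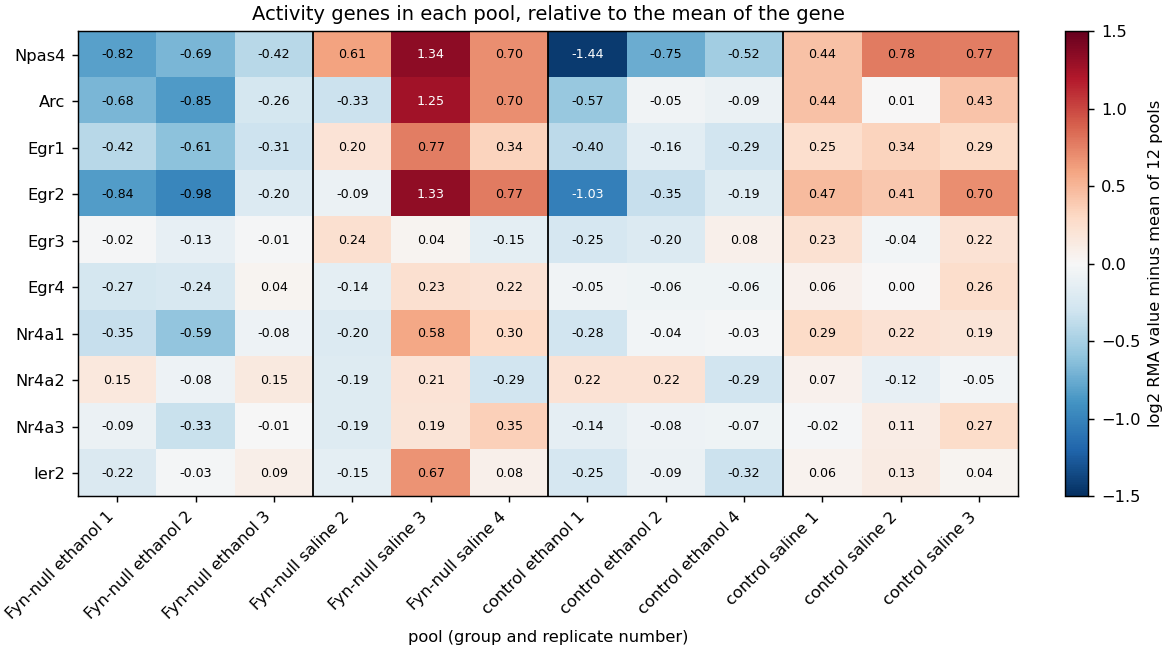
Level of each of the 10 genes (rows) in each pool (columns, by group and replicate number) minus the gene's mean over the 12 pools, in log2 units printed in each cell. Red is above and blue below the mean, and ethanol pools are to the left of saline pools within each genotype. Npas4, Arc, Egr1, Egr2 and Nr4a1 are below their mean in all 6 ethanol pools.

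Genes with a pattern like that of the members were sought among 12313 other genes, by Pearson's correlation over the 12 pools with the mean standardised member, as a description. The most alike was Fos, the AP-1 subunit that is the classical immediate-early gene (r = 0.968), followed by Marchf11, a membrane ubiquitin ligase (0.956), Plcl2, a phospholipase C-like protein (0.936), Crhr1, the receptor of corticotropin-releasing hormone (0.930), and Zfp282, a zinc finger protein (0.924). Fos and Marchf11 also led when group means were removed first (0.955 and 0.949). The signal of Marchf11 was low, between 4.98 and 5.61 in the 12 pools, around the filter level of 5.15. All points share the same arrays. Fos had 8.22, 8.06 and 8.51 in Fyn-null ethanol pools, against 8.78, 9.76 and 9.05 in Fyn-null saline pools. In control ethanol pools it had 8.30, 8.61 and 8.63, against 9.15, 9.16 and 9.11 in control saline pools. Its ethanol and saline pools did not overlap, and it fell by 0.78 over both genotypes (SE 0.14, limma adjusted p = 0.00826). The probe set of Crhr1 used here gave -0.22 (SE 0.05, limma adjusted p = 0.0310), while a second probe set of Crhr1 gave 0.19 (SE 0.13).

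Among other genes known to respond to neuronal activity, 37 of a list of 40 were measured and their median log2 difference over both genotypes was -0.14, against -0.02 for all probe sets. Of these 37, 7 were called lower and 1 higher, against 4.22% and 2.58% of all probe sets. Klf10, a Kruppel-like transcription factor (-0.83, SE 0.07), Dusp6, a phosphatase that switches off ERK (-0.78, SE 0.11), and Fbxo33, an F-box protein (-0.38, SE 0.07), fell, with adjusted p of 6.66e-05, 0.00164 and 0.00633 in limma. The others called lower, named after their values were seen, were Fos, Nfil3 (-0.50), Inhba (-0.44) and Bdnf (-0.36). Jun, the AP-1 partner of Fos, rose by 0.77 (SE 0.09, limma adjusted p = 0.000573). Within the genotypes, 2 were called lower and 1 higher in Fyn-null mice (0.145% and 0.254% of all probe sets), and 3 lower and 1 higher in control mice (0.925% and 0.509%).

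Of 21 measured regulators of activity genes (kinases, CREB, serum response and MEF2 factors with their coactivators, and histone deacetylases) 2 were called lower, Hdac5 (-0.30, SE 0.06) and Crtc2, a coactivator of CREB (-0.23, SE 0.05), with adjusted p of 0.0173 and 0.0284 in limma, and the median was -0.09. By adjusted p, 4.22% of all probe sets were called lower in this comparison. An unadjusted p under 0.05 was reached by 8 of the 21. Such p were common here, since over all 24770 probe sets an unadjusted p of 0.041 (limma) held rank 5519 and one of 0.054 rank 6223. Of 15 measured partners and co-regulators of the members, such as Nab2, which represses Egr factors (-0.23, SE 0.07, limma adjusted p = 0.0597), 0 were called by limma, with 5 at an unadjusted p under 0.05, and the median was -0.08. Glucocorticoid-responsive genes went the other way. Of 13 measured, 10 were called higher and 0 lower, against 2.58% and 4.22% of all probe sets. All 13 were above 0, with a median of 0.59. Tsc22d3, also called Gilz, rose by 1.36 (SE 0.07), Fkbp5, a chaperone that restrains the glucocorticoid receptor, by 1.36 (SE 0.09), Pdk4 by 1.10 (SE 0.09) and Sgk1 by 1.03 (SE 0.07). Saline mice were injected too, and the part of glucocorticoids in the fall of the members was not tested.

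**Figure D5:**
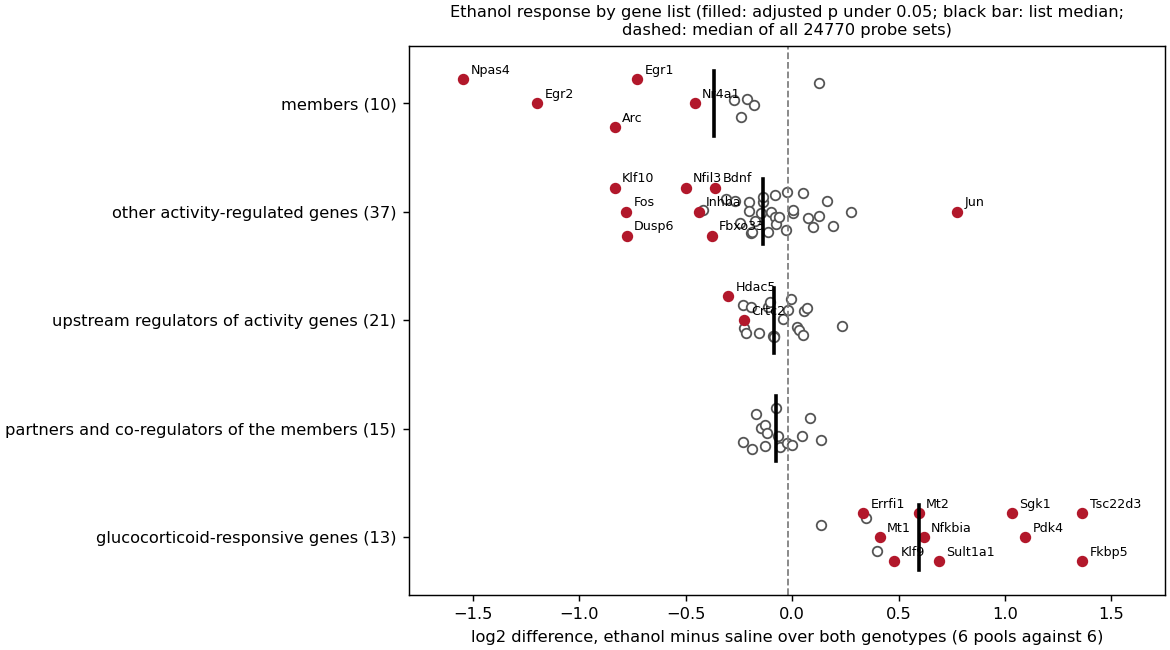
Log2 difference between ethanol and saline over both genotypes (x axis, 6 pools against 6) of the genes of 5 lists (rows), each gene by its probe set with the highest mean signal. Filled points have an adjusted p under 0.05 in limma and are named, black bars are list medians, and the dashed line is the median of all probe sets. The median of the glucocorticoid-responsive genes is at 0.59 and those of the other 4 lists are below 0.

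Markers of cell types were set beside these results. In the comparison over both genotypes 4.22% of all probe sets were called lower and 2.58% higher. None of the 8 neuronal markers was called over both genotypes (limma), with 0 at an unadjusted p under 0.05, and the median difference was 0.00071. Of 6 endothelial markers 4 fell, Tek (-0.92, SE 0.14), Cldn5 (-0.64, SE 0.07), Slco1c1 (-0.62, SE 0.06) and Flt1 (-0.41, SE 0.06), while Slc2a1, the glucose transporter of the blood-brain barrier, rose by 0.71 (SE 0.08). The mean of the 6 was 7.29 to 7.47 in Fyn-null ethanol pools, against 7.52 to 7.70 in Fyn-null saline pools, and 7.14 to 7.33 in control ethanol pools, against 7.59 to 7.63 in control saline pools. It was lower after ethanol in both genotypes without overlap, and the part of the vessels in the result was not tested. Of the other lists, 1 of 6 markers of cortical layers (Bcl11b, 0.19), 1 of 4 of striatal neurons (Ppp1r1b, 0.21) and 1 of 7 of oligodendrocytes (Mal, 0.53) were called higher. Called lower were 1 of 8 of microglia (Aif1, -0.44) and the 1 measured of blood (Alas2, -0.37). None of the 7 astrocyte markers was called.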

How the data were processed

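The deposited log2 values, 1 per probe set and array, were made by the authors from Affymetrix mouse genome arrays by RMA in affy, as the processing notes of the submitters name them. No version is given in the sources used here. Whether they are batch-corrected, as the methods describe, is not stated. Of 45037 probe sets other than the 64 controls, those in the lowest 45% by mean value were dropped, and 24770 were tested. Group means were fitted in limma 3.58.1 (R 4.3.3, eBayes), and genotype and treatment as additive terms for 6 pools against 6, with Benjamini-Hochberg adjustment over all probe sets. S-scores, used in the methods, were not computed.

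In lists and likeness a gene was taken by its brightest probe set. Every member probe set is reported, with up to 4 genes of a list by smallest p and the 5 most alike genes. The members and lists were chosen with earlier results of these data known. The median standard error was 0.11 for 3 pools against 3. Alternatives were no filter or one of 60%, a further quantile normalization, a replicate block, trend and robust moderation, array weights, only the groups compared, and leaving out single arrays or both pools in doubt, besides the 3' to 5' covariate.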

Additional observations from a re-analysis of the deposited data

How the results depend on the processing

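Over both genotypes 6 member probe sets were called. The 2 probe sets of Egr2, Egr1 and Npas4 were called in every fit that left out 1 array, and Arc and Nr4a1 in 2 of 12 each, so that the count ran from 4 to 7. It was 4 with no filter, after quantile normalization, with array weights, with the replicate block and without both pools in doubt, where Arc and Nr4a1 were lost. It was 5 with trend and robust moderation, where Arc was lost, and 4 with the 60% filter, which left out both probe sets of Egr2. The count in Fyn-null mice ran from 0 to 4 and in control mice from 1 to 2. No alternative called a member between genotypes or for the interaction. With the 3' to 5' covariate 0 members were called over both genotypes, in Fyn-null mice and in control mice, and of all probe sets 27, 15 and 16. In Fyn-null mice the count of members was 4 with array weights, where Arc was -0.95 and Egr2 -1.04, and 1 with only the groups compared. In control mice it was 2 with trend and robust moderation and 0 with only the groups compared.

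Of 13 pairs of same-numbered arrays 3 had a residual correlation over 0.1 (range -0.43 to 0.32). Whether such arrays share more than a number was not tested. With the replicate block 1 member was called in Fyn-null mice and 2 in control mice, and of all probe sets 26 in Fyn-null mice, 36 in control mice and 710 over both genotypes, against 99, 355 and 1686 without the block. Arc was then -0.74 and Nr4a1 -0.41 over both genotypes.

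Counts over all probe sets moved more. The ethanol response of Fyn-null mice gave 155 after quantile normalization, 2781 with array weights and 54 without both pools in doubt. That of control mice gave 18 with only the groups compared and 147 without both pools. Fyn-null against control gave, after ethanol, 1 with trend and robust moderation, 3975 with array weights, 193 with only the groups compared and 260 without both pools. After saline it gave 44 without both pools. Over both treatments it gave 1 with the 60% filter, 2 after quantile normalization, 6 with array weights and 669 without both pools. Array weights gave Fyn-null ethanol replicate 3 a weight of 10.3, against 0.45 to 1.45 for the others, and their estimation stopped before convergence, so these counts rest on that array. Leaving out 1 array gave 770 to 1625 calls over both genotypes, 33 (without Fyn-null ethanol replicate 3) to 145 in Fyn-null mice, 76 (without control saline replicate 3) to 410 in control mice, 0 to 129 between genotypes over both treatments, 0 to 35 after ethanol and 0 after saline. The interaction gave 0 throughout. A further quantile normalization moved the median of all probe sets by less than 0.1. The number of pools limits the precision of every value.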
